A study of Homo sapiens with 5 samples.

Results

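The neurofilament and neuronal intermediate filament genes were examined in HEK293 cells, a line made by transforming human embryonic kidney cells with adenovirus DNA. The 6 genes were NEFL, NEFM and NEFH, which encode the light, medium and heavy neurofilament subunits, INA (alpha-internexin), PRPH (peripherin) and NES (nestin). Every probeset with one of these symbols as its only gene in the platform annotation was taken, which gave 11 probesets of the 54613 on the array that were not controls. The cells stably carried either a PRL-1 construct in pcDNA4 (HEK293-PRL-1, n = 2 arrays) or the empty pcDNA4 vector (HEK293-vector, n = 3 arrays), and both lines were grown in serum-supplemented DMEM with penicillin and streptomycin. PRL-1, encoded by PTP4A1, is a prenylated protein tyrosine phosphatase. Each array held RNA of a separate culture, and RNA of a further PRL-1 culture was set aside by the authors because qRT-PCR did not show raised PRL-1 in it. The cultures of a group came from a single stable line, and the sources used here do not say whether that line was a clone or a pool. An effect of the construct and any other difference between the lines therefore cannot be told apart.

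Intermediate filaments are rope-like polymers of coiled-coil proteins. In mature neurons NEFL forms the core of the neurofilament, into which NEFM and NEFH insert with their long, heavily phosphorylated tails, and the filaments set the calibre of large axons. INA joins them mainly in central neurons and PRPH mainly in peripheral neurons, while NES belongs to neural progenitor cells, where it copolymerizes with vimentin. HEK293 cells are an unusual case among kidney-derived lines, since they are known to carry neurofilament proteins.

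Signals were scaled by the authors to a common mean, so that a signal is a brightness on a linear scale with no unit. The median signal was 124.2 and 143.4 on the arrays labelled PRL-1, against 135.4, 138.2 and 165.9 on the vector arrays. Vector replicate 3 stood apart, with correlations of 0.938 to 0.947 to the other arrays over tested probesets, against 0.954 to 0.964 among those others. A signal of 100 was used as the floor for a test, and at most 3 of 27 control probesets for bacterial transcripts reached it on any array. The 4 PTP4A1 probesets, read as a check of the labels, were not called in either direction (limma log2 fold changes 0.06 to 0.15, adjusted p = 0.737 to 0.892), and the highest upper bound of their 95% intervals was 0.44, so that a 2-fold rise lay outside all 4. The submitters state that by qRT-PCR both cultures had at least double the PRL-1 of any vector culture. The paper also states, from earlier work, that PRL-1 mRNA and protein were higher in this line than in the vector cells. The PTP4A1 probesets did not show a rise of that size. The sources used here do not say which part of the transcript the probesets read. Probesets that read a part missing from the construct could not show such a rise, so that these values do not decide whether the label holds. No other measure of PRL-1 was analysed here, and the arrays are called by their label throughout.

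NEFL gave one of the brightest signals on the array in both lines, and its signal differed little between them. Probeset 221805_at read 31075 and 31282 on the arrays labelled PRL-1, against 28915, 34190 and 29656 on the vector arrays. Both PRL-1 values lay within the range of the vector values. Only 97 to 206 of the 54613 probesets were brighter on any one array, and the brightest signal of any probeset was 41859 to 67488 per array. The group means were 31178 ± 146.1 (SD, n = 2) on the PRL-1 arrays and 30920 ± 2855 (SD, n = 3) on the vector arrays. The difference between the groups was 0.02 on the log2 scale (SE 0.12, limma adjusted p = 0.976), with a 95% interval of -0.26 to 0.30, which leaves out a change of 2-fold in either direction.

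The other NEFL probesets also differed little between the lines, and since probes differ in how well they bind, the distance between the 3 probesets does not measure amounts of RNA. Probeset 221916_at read 14317 and 12682 on the arrays labelled PRL-1, against 12476, 12876 and 12000 on the vector arrays. Here the first PRL-1 array was the highest of the 5 and the second lay among the vector arrays (log2 fold change 0.11, 95% interval -0.14 to 0.37, limma adjusted p = 0.775). Probeset 221801_x_at, whose suffix marks probes that may also bind other transcripts, read 3020 and 3073 on the arrays labelled PRL-1, against 3112, 2732 and 2228 on the vector arrays. Vector replicate 3 was the low one, and vector replicate 1 lay above both PRL-1 arrays (log2 fold change 0.19, 95% interval -0.14 to 0.53, limma adjusted p = 0.713). By mean signal on the vector arrays, the 3 NEFL probesets stood at percentiles 99.7, 99.0 and 94.3 of all probesets.

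**Figure D1:**
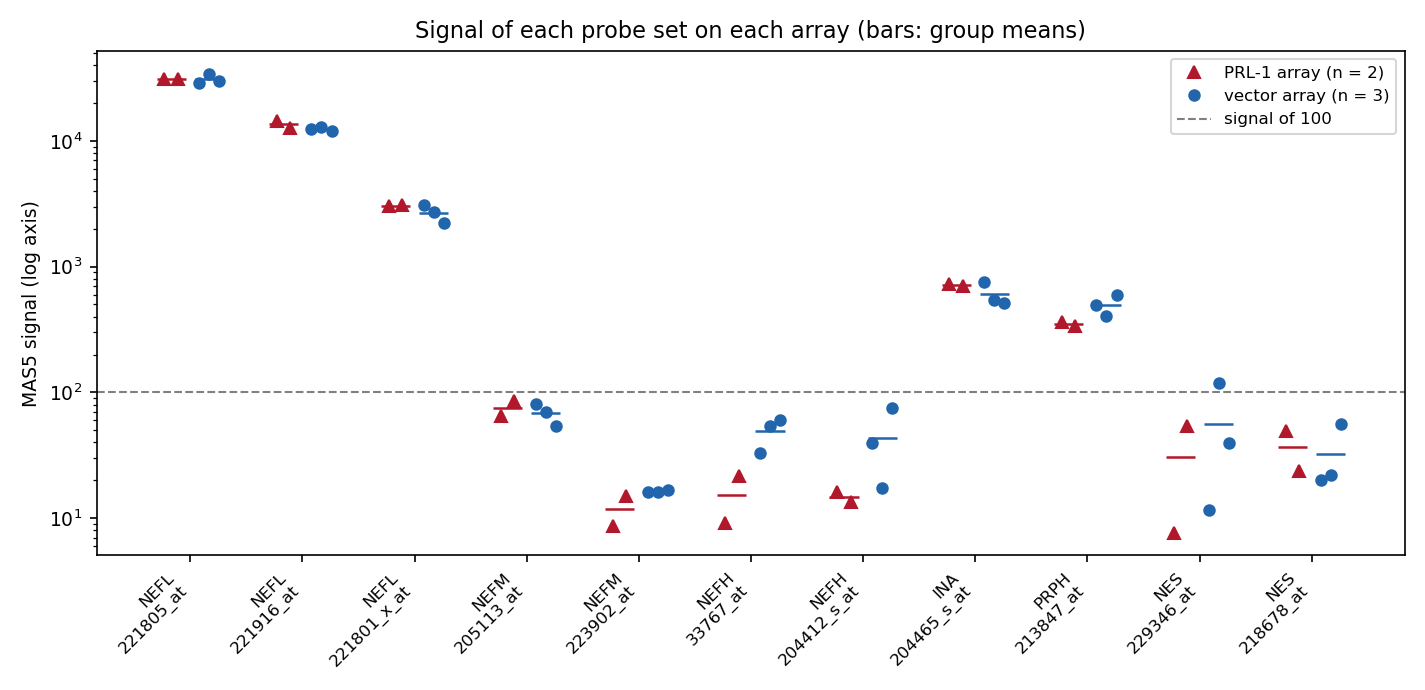
MAS5 signal (log axis) of the 11 probesets of the 6 genes on each array, with triangles for the arrays labelled PRL-1 (n = 2), circles for the vector arrays (n = 3) and bars at group means. The 3 NEFL probesets, INA and PRPH lie above the dashed line at a signal of 100 on all 5 arrays, while NEFM and NEFH lie below it on all 5 and NES exceeds it on 1 array in 1 probeset.

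The partners that NEFL assembles with in neurons were dim. NEFM, the medium subunit, read 64.38 and 85.01 in probeset 205113_at on the arrays labelled PRL-1, against 80.2, 70.01 and 53.93 on the vector arrays. Its second probeset, 223902_at, read 8.669 and 14.98 on the arrays labelled PRL-1, against 16.09, 16.09 and 16.83 on the vector arrays. In 223902_at both PRL-1 values lay below every vector value. All 10 NEFM values lay below the floor of 100, so that no fold is given and neither probeset was tested. NEFM is the gene next to NEFL in the RefSeq gene table of GRCh38.p14, with no other protein-coding gene between them. The NEFM probesets stood at percentiles 32.2 and 8.8 of all probesets by vector mean.

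NEFH, the heavy subunit, was dim in the same way. Probeset 33767_at read 9.08 and 21.66 on the arrays labelled PRL-1, against 33.28, 54.36 and 59.82 on the vector arrays. Probeset 204412_s_at read 16.01 and 13.52 on the arrays labelled PRL-1, against 39.28, 17.23 and 74.5 on the vector arrays. In both probesets every PRL-1 value was below every vector value, as in NEFM 223902_at. Groups also failed to overlap in 28.9% of all tested probesets, a set that leaves out these dim ones. The share among untested probesets was not computed. All 10 NEFH values were under the floor, where signals have no dependable order. Fitted without the floor, 33767_at had a limma adjusted p of 0.549 and 204412_s_at one of 0.703.

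NES, the progenitor-type filament, was dim and scattered. Probeset 218678_at read 49.5 and 23.56 on the arrays labelled PRL-1, against 20.11, 22.01 and 55.93 on the vector arrays. Probeset 229346_at read 7.694 and 53.79 on the arrays labelled PRL-1, against 11.54, 118.3 and 39.62 on the vector arrays, and the value of vector replicate 2 was the only one of the 10 above the floor. Replicates of 1 group thus differed more than the groups did, and NES was not tested. A dim signal is a limit of these probesets and this array, and does not show that the transcript is absent.

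INA was measured at a middle brightness in both lines. Probeset 204465_s_at read 729.1 and 704.8 on the arrays labelled PRL-1, against 748.8, 546.9 and 513.9 on the vector arrays. Both PRL-1 arrays thus lay above vector replicates 2 and 3 and below vector replicate 1. The means were 716.9 ± 17.21 (SD, n = 2) on the PRL-1 arrays and 603.2 ± 127.1 (SD, n = 3) on the vector arrays (percentile 77.2 of all probesets). The log2 fold change was 0.27 (SE 0.18, 95% interval -0.15 to 0.69, limma adjusted p = 0.68). Without vector replicate 1 it was 0.44 (adjusted p = 0.495), and without vector replicate 3 it was 0.16 (adjusted p = 0.703).

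PRPH was the only tested gene of the 6 whose groups did not overlap. Probeset 213847_at read 364.2 and 338.5 on the arrays labelled PRL-1, against 494.5, 408.3 and 590.1 on the vector arrays. The lowest vector value stood above the higher PRL-1 value, and vector replicate 3 was the highest of all. The means were 351.3 ± 18.16 (SD, n = 2) on the PRL-1 arrays and 497.7 ± 90.94 (SD, n = 3) on the vector arrays (percentile 74.2). The log2 fold change was -0.49 (SE 0.19, 95% interval -0.92 to -0.05), which corresponds to a 1.4-fold lower signal, and it did not pass the test (limma adjusted p = 0.461). Groups without overlap were common on these arrays, at 28.9% of all tested probesets, 16.1% being lower and 12.8% higher on the arrays labelled PRL-1. Without vector replicate 3 the log2 fold change of PRPH was -0.36 (adjusted p = 0.368).

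The promoters of INA and PRPH are shown because these are the tested genes beside NEFL, whose promoter was not used here. Each runs from 250 bases before to 50 bases after the annotated RefSeq start in GRCh38.p14, at chr10:103276888-103277187 on the plus strand for INA and chr12:49294897-49295196 on the plus strand for PRPH. Capitals mark matches, on either strand, to the GC box GGGCGG and the TATA motif TATAAA.
INA: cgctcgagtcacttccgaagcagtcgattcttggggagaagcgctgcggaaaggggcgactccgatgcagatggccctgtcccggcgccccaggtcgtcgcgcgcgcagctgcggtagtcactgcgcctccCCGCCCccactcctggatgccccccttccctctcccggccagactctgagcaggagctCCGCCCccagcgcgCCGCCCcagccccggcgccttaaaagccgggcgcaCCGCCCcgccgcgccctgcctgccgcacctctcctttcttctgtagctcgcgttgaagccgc
PRPH: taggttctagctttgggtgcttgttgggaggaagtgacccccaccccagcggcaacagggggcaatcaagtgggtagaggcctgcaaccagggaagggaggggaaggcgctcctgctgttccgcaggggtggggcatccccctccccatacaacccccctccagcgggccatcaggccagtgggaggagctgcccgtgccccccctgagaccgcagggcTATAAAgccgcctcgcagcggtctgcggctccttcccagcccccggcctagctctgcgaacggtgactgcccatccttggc
The INA window held 4 GC boxes, no TATAAA, 35 CG dinucleotides and 71.3% G and C. The PRPH window held 1 TATAAA, which began at position -31 relative to the start, no GC box, 13 CG dinucleotides and 67% G and C. The NES window (chr1:156677358-156677657, minus strand) held 4 GC boxes, of which a pair overlapped, and no TATAAA. Of 35116 promoter windows of the same length in the table, 11.5% held TATAAA and 45% held GGGCGG. The motif TTCAGCACC, the left part of the element bound by the neuronal gene repressor REST, was in 0.376% of windows and in none of these 3.

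Of the 11 probesets, 5 were bright enough to be tested, and these covered NEFL, INA and PRPH. None of the 5 was called at a limma adjusted p at or below 0.05, while 65 of all 33818 tested probesets were called (0.192%), of which 20 were higher (0.0591%) and 45 lower (0.133%). At an unadjusted p under 0.05 there was 1 of 5 (PRPH), against 9.72% of all tested probesets. The methods' t-test on the same values called 0 of the 5, and 0 had an unadjusted p under 0.05. With no floor, 0 of the 11 probesets were called and 2 had an unadjusted p under 0.05, PRPH 213847_at and NEFH 33767_at.

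**Figure D2:**
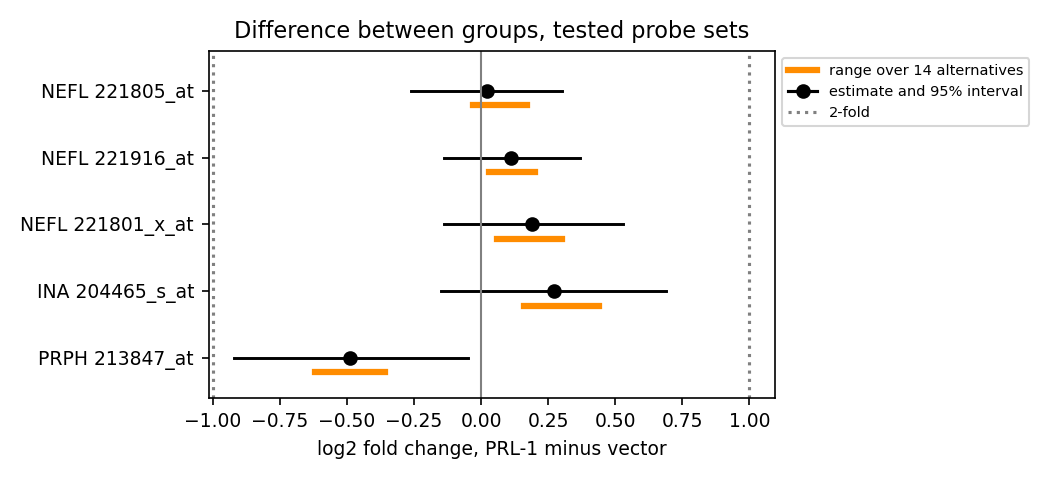
Log2 fold change (PRL-1 minus vector) of the 5 tested probesets, with the estimate and its 95% interval in black and the range over 14 alternative settings in orange. The intervals of NEFL and INA span 0, that of PRPH runs from -0.92 to -0.05, and all 5 lie within a 2-fold change (dotted lines).

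Across arrays the 5 probesets did not move as a block. On vector replicate 3, PRPH lay 0.46 above its mean over the 5 arrays on the log2 scale, while INA lay at -0.32 and NEFL 221801_x_at at -0.34. On vector replicate 1, PRPH (0.20) and INA (0.22) were both above their means. The brightest NEFL probeset stayed within -0.10 and 0.14 of its mean on every array. None of the 3 genes ranged over 1 log2 unit, the least required here to search for genes of like pattern, with ranges of 0.24 for NEFL, 0.54 for INA and 0.80 for PRPH, so that no such genes are named.

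**Figure D3:**
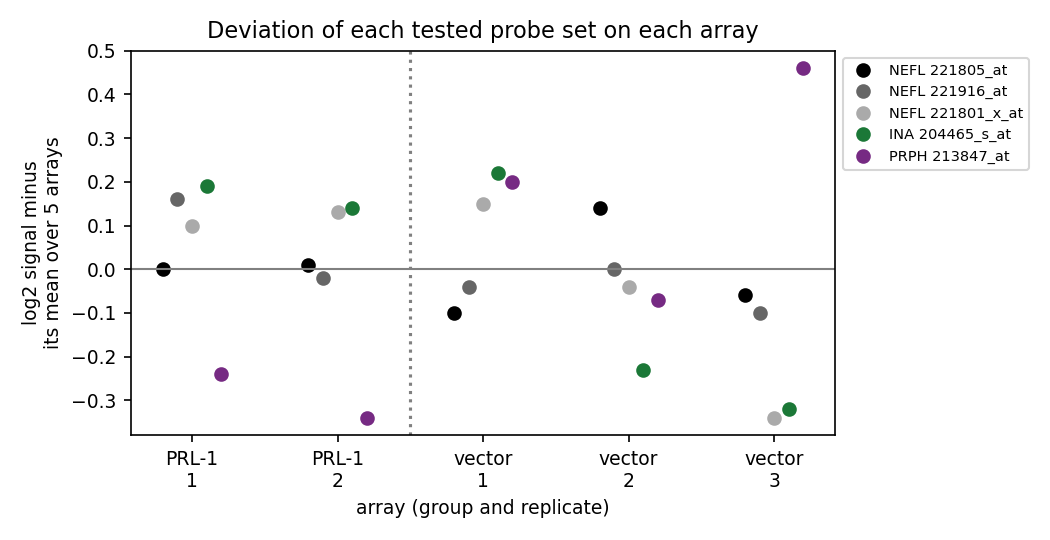
Deviation of each tested probeset from its mean log2 signal over the 5 arrays, by array, with the arrays labelled PRL-1 left of the dotted line and the vector arrays right of it. PRPH lies at -0.24 and -0.34 on the arrays labelled PRL-1 and reaches 0.46 on vector replicate 3, where INA and NEFL 221801_x_at lie lowest.

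The intermediate filament genes of other cell types were read alongside. Of 14 such genes, lamins included, 11 were tested and 0 were called in either direction, against 36 of all 14546 tested genes (0.247%). Their median log2 fold change was 0.07, against -0.03 over all tested genes. VIM, the vimentin of mesenchymal cells and the usual partner of NES, read 13481 and 13501 on the arrays labelled PRL-1, against 16971, 18340 and 23975 on the vector arrays (log2 fold change -0.53, limma adjusted p = 0.314). KRT8, a keratin of simple epithelia, read 2141 and 2116 on the arrays labelled PRL-1, against 998.8, 867 and 1583 on the vector arrays (log2 fold change 0.94, adjusted p = 0.257). Without vector replicate 3, the KRT8 difference was 1.19 with a limma adjusted p of 0.00163. In that setting the calls over the whole array rose from 65 to 313. KRT8 was also called with array weights and with the replicate number as a block. The block fits vector replicate 3 exactly, since that array has no partner, so that it too gave 1.19 and is no separate check. KRT8 was not called without vector replicate 1 or without vector replicate 2. It was also not called with another filter or normalization, without the trend or by the methods' t-test. LMNB1, a nuclear lamin, differed by 0.45 (adjusted p = 0.448). DES (desmin, of muscle), GFAP (of astrocytes) and BFSP2 (of the lens) were not tested.

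None of the tested genes that bind, modify or carry neurofilaments was called. By the same rule 36 of all 14546 tested genes were called (0.247%), so that 0 calls in short lists do not set them apart. Of 12 genes for linkers and turnover, 11 were tested and 0 called (median 0.04 on the log2 scale), and the smallest adjusted p belonged to CRYAB, a small heat shock protein that binds intermediate filaments (log2 fold change -1.21, 95% interval -2.27 to -0.15, limma adjusted p = 0.454). CRYAB was itself dim, at 51.75 and 125.3 on the arrays labelled PRL-1 and 127.5, 215.1 and 236.4 on the vector arrays. Of 18 genes for the kinases and phosphatases that act on neurofilament tails, 14 were tested and 0 called (median 0.07). GSK3B, one of those kinases, read 1877 and 1818 on the arrays labelled PRL-1, against 1389, 1522 and 1225 on the vector arrays (log2 fold change 0.43, adjusted p = 0.341). MAPK3, another, also differed by 0.43 (adjusted p = 0.476) and CDK5 by 0.27 (adjusted p = 0.646). The 13 genes of transport motors and their partners were all tested and 0 were called (median -0.03), KIF5B, a kinesin heavy chain, having the smallest adjusted p (log2 fold change -0.30, adjusted p = 0.443).

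A single gene of the neuronal microtubules and axon was called. STMN3, a stathmin-family protein that destabilizes microtubules, was 2.01-fold higher, with 1267 and 1358 on the arrays labelled PRL-1 and 670.5, 636.4 and 655.6 on the vector arrays (log2 fold change 1.00, limma adjusted p = 0.0213). It was the single call among 17 tested genes of the 20, whose median difference was 0.00, and 36 of all 14546 genes were called by the same rule (0.247%), 12 of them higher (0.0825%) and 24 lower (0.165%). The size of the STMN3 difference hardly moved with any 1 array left out (0.95 to 1.05), although the call was lost without PRL-1 replicate 1 (adjusted p = 0.334), PRL-1 replicate 2 (0.361), vector replicate 1 (0.086) or vector replicate 2 (0.102). TUBB3, the tubulin of neurons, read 13549 and 17029 on the arrays labelled PRL-1, against 13796, 14561 and 8404 on the vector arrays, and was not called (adjusted p = 0.667). The tested genes ran from dim to bright. GAP43 read 93.56 and 84.5 on the arrays labelled PRL-1, against 191.3, 86.61 and 165.1 on the vector arrays. UCHL1 read 11199 and 11569 on the arrays labelled PRL-1, against 10289, 9661 and 11878 on the vector arrays. The untested genes of the list, DCX, STMN2 and L1CAM, which mark young neurons and axons, stayed below the floor on every array. The paper lists STMN2 among proteins measured in these cells, so that a dim probeset does not show absence.

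**Figure D4:**
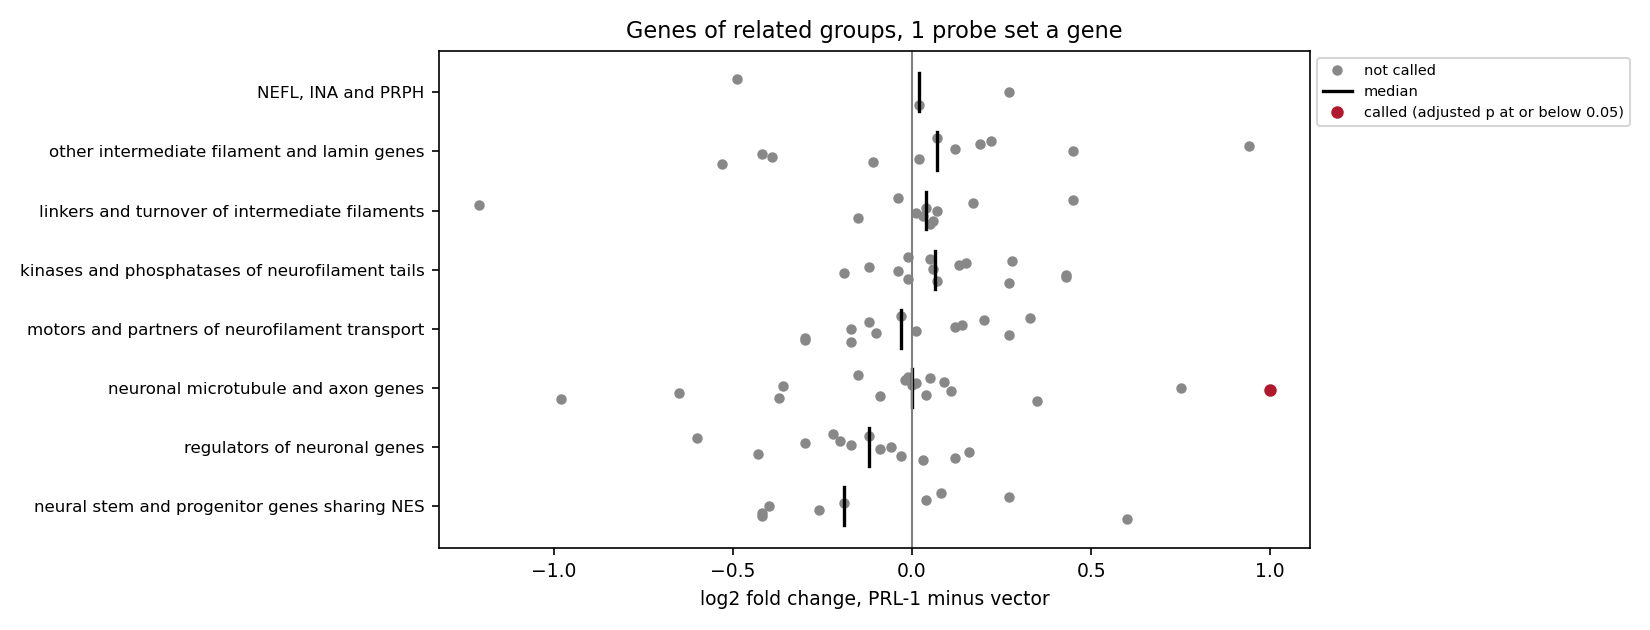
Log2 fold change (PRL-1 minus vector) of each tested gene, 1 probeset a gene, for NEFL, INA and PRPH and for 7 related groups of genes, with black bars at group medians. All medians lie between -0.19 and 0.07, and STMN3 (red) is the only called gene.

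Of 20 regulators of neuronal genes, 13 were bright enough to be tested and 0 were called (median -0.12). Over all 14546 tested genes the share called was 0.247%. REST, which represses neuronal genes in other tissues, read 1112 and 905.1 on the arrays labelled PRL-1, against 1094, 943.6 and 923.4 on the vector arrays (log2 fold change 0.03, limma adjusted p = 0.967). The REST values of the groups overlapped. ISL1, a homeodomain factor of motor and sensory neurons, read 424.4 and 439.6 on the arrays labelled PRL-1, against 694.1, 681.4 and 592.2 on the vector arrays (log2 fold change -0.60, adjusted p = 0.266). Of 14 neural stem and progenitor genes, 9 were tested and 0 called (median -0.19). SOX2 differed by 0.60 on the log2 scale (adjusted p = 0.237) and PAX6 differed by -0.42 (adjusted p = 0.337), while NES, the filament of such cells, stayed dim.

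Markers of other cells were read beside these genes. Of 10 markers of neurons and of adrenal or neural crest cells, 9 had a probeset and 5 were tested. The summed signal of all 9, dim ones included and with the brightest probeset of each gene, was 770.5 to 995.6 on the arrays labelled PRL-1 and 1272 to 1438 on the vector arrays. Without SYT1 the sum was 624.9 and 834 on the arrays labelled PRL-1 and 803.4, 805.7 and 904.7 on the vector arrays, so that the groups overlapped and their gap rested on that gene. SYT1, the calcium sensor of synaptic vesicles, was called lower in its brighter probeset (145.7 and 161.6 on the arrays labelled PRL-1, against 468.8, 599.4 and 533.3 on the vector arrays, limma adjusted p = 0.00952), and a dimmer one lay the same way without being called (3.464 and 3.996 on the arrays labelled PRL-1, against 100.7, 189.8 and 116.1 on the vector arrays, adjusted p = 0.323). The other 4 tested markers were not called and lay on both sides of 0, with log2 fold changes of 0.38 for CHGB, -0.15 for SNAP25, -0.45 for RBFOX3 and -1.48 for SYP. The defining markers TH, DBH and CHGA were below the floor on every array, and none was listed at 0. The arrays held RNA of cultures of a cell line, not of a tissue of several cell types, and the cause of the PRPH values was not tested. In bulk RNA a change in all cells of a culture and a change in some of them cannot be told apart. Of 10 renal epithelial markers, 7 were tested and 0 called, against 0.247% of all tested genes. PAX2, PAX8 and WT1 lay above the floor and CDH16 below it. Of 8 markers each of glia, fibroblasts and blood cells, 2, 5 and 2 were tested and 0 called. Yet HBB, a blood marker, read 394.7 and 479.5 on the arrays labelled PRL-1, against 460.3, 454.7 and 719.1 on the vector arrays. A signal above the floor thus does not by itself show a cell type.

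The genes next to these filament genes were read for comparison, where they had a tested probeset. Among them only CRABP2, a retinoic acid binding protein on 1 side of NES, was called, against 0.192% of all tested probesets. It was higher, with 1051 and 996.9 on the arrays labelled PRL-1 and 235.7, 376.2 and 301.9 on the vector arrays (log2 fold change 1.77, limma adjusted p = 0.0147). NES itself stayed dim. BCAN, on the other side of NES, was not called in either tested probeset (log2 fold changes 0.07 and -0.24). DOCK5, next to NEFL, and THOC5, next to NEFH, were not called in any tested probeset. TUBA1C and TROAP, on either side of PRPH, were not called in any of their 4 probesets (log2 fold changes -0.35 to -0.07). PCGF6, next to INA, differed by -0.29 (adjusted p = 0.476).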

How the data were processed

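RNA of HEK293 cultures was hybridized to HG-U133 Plus 2.0 arrays, 2 labelled PRL-1 and 3 labelled vector. The authors deposited MAS5 signals, a linear intensity per probeset, made with the affy library at its default settings, in which mismatch probes correct each probe and every array is scaled to a common mean (500 after trimming 2% at each end). Arrays have no read depth, and precision is limited by how many there are.

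Of 54675 probesets, 62 controls were left out. Probesets with a signal of at least 100 on at least 2 arrays were tested (33818). The log2 signals were modelled in R 4.3.3 with limma 3.58.1 (lmFit, eBayes with an intensity trend), two-sided, with group as the only term, and a Benjamini-Hochberg adjusted p at or below 0.05 over all tested probesets was a call. An uncalled difference is given with its sign, but no direction was concluded from it. The fit was tested on simulated data. For gene lists the tested probeset with the highest mean log2 signal stood for each gene. Of the probesets, 41091 had 1 gene symbol, 1801 had several and 11721 had none in the annotation used. Symbols were updated to the RefSeq gene table of GRCh38.p14, and promoter sequences are from RefSeq in that build.

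The 6 genes and all lists were chosen with earlier results of these data known. Named were all probesets of the 6 genes, called list genes and up to 3 further genes per list with the smallest adjusted p. PTP4A1, CDK5, TUBB3, GAP43, UCHL1, REST, the neighbouring genes, the untested list genes and the cell markers were added outside that rule, after their values were seen. Alternatives covered the filter, a log offset of 32, quantile normalization, median centring, eBayes without the trend, array weights, a replicate block, the methods' t-test (with the filter and threshold used here, since presence calls were not used), each array left out in turn and, for lists, the mean over probesets. Leaving out a PRL-1 array assumes that the single one left varies as the vector arrays do.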

Additional observations from a re-analysis of the deposited data

How the results depend on the processing

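No probeset of NEFL, INA or PRPH was called under any of the 14 alternatives. All of these reuse the same arrays, so that a steady sign across them is not further evidence. The log2 fold change of PRPH stayed below 0 in all 14, between -0.62 and -0.36 (adjusted p from 0.318 to 0.982), and that of INA lay between 0.16 and 0.44 (adjusted p from 0.495 to 0.988). That of NEFL 221805_at was near 0, between -0.03 and 0.17, the highest with quantile normalization. The vector mean signals of these 5 probesets moved by less than 1 SD under quantile normalization. NEFM, NEFH and NES are limited by signals near or under the floor.

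The number of probesets called over the whole array was less steady. It was 65, and became 9 without the trend, 275 with array weights and 0 by the methods' t-test (2905 at an unadjusted p under 0.05). The methods tested only probesets that passed a filter on MAS5 presence calls, and at their looser threshold of 0.1 the paper does list calls, SPARC and FLNA among them. The 0 given here is thus not the paper's result. Run here on the same 33818 probesets instead, that test also called 0 at 0.1. With 1 array left out it ran between 11 (without PRL-1 replicate 1) and 313 (without vector replicate 3), with 15 without PRL-1 replicate 2, 43 without vector replicate 1 and 27 without vector replicate 2. Of the genes in the 7 lists, 1 was called, STMN3, against 0 without the trend (8 at an unadjusted p under 0.05), 0 by the methods' t-test (10), 3 with array weights (STMN3, KRT8 and ISL1) and 0 to 2 with 1 array left out. The cause of these shifts was not tested.

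Replicate numbers are shared by the groups, but nothing in the labels says that a number marks a common batch or day, and only 2 numbers have an array in both groups. With the replicate number as a block, which leaves vector replicate 3 without a partner, 448 probesets were called (237 higher and 211 lower), 3 list genes (STMN3, KRT8 and ISL1) and 0 probesets of the 6 genes, PRPH having a log2 fold change of -0.36 (adjusted p = 0.318).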
